A study of Macaca mulatta with 12 samples.

Results

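Committed oligodendrocyte precursors are cells between the precursor, which still divides and carries growth factor and neurotransmitter receptors, and the oligodendrocyte, which wraps axons in myelin. A committed cell stops dividing, switches on early genes of myelination such as MYRF, a membrane-bound transcription factor that cuts itself and then drives myelin genes, and either goes on to form sheaths or dies. Adult primate brain holds few such cells at any time. They were looked for here among single nuclei from frozen amygdala of rhesus macaques (Macaca mulatta), a brain region that processes fear and emotional memory.

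The 146 nuclei were chosen from 26400 by unique molecular identifiers (UMIs, each a captured RNA molecule). A nucleus had to hold at least 2 UMIs of ENPP6 and BMPER together and at least 2 of BCAS1. It could hold at most 1 UMI of the neuron gene RBFOX3 and at most 1 of GAD1 and GAD2 together. ENPP6 codes for a choline phosphodiesterase that marks newly formed oligodendrocytes in mice, BMPER for a secreted binder of bone morphogenetic proteins, and BCAS1 for a protein of early myelinating oligodendrocytes in mice and humans. The members made up 0.553% of all nuclei (exact 95% binomial interval 0.467% to 0.650%, counting error only).

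They were set against the stages on either side, under the same limits on RBFOX3, GAD1 and GAD2. Precursors, 431 nuclei that failed the rule, held at least 3 UMIs of LHFPL3 and at least 2 of STK32A, COL9A1 and AFAP1L2 together. Mature oligodendrocytes, 434 nuclei that failed the rule, held at least 4 UMIs of the myelin genes MOBP, MOG, OPALIN and MAG together. Nuclei that passed both comparison rules were left out of both sets. Of the members themselves, 88 also passed the precursor rule alone, 18 the mature rule alone, 11 both and 29 neither.

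The study had 1 group and no treatment. Its labels list 12 samples of amygdala nuclei, titled with a first number from 1 to 3 and a second from 1 to 4 under each, without saying whether the first stands for an animal. They give no age, sex or strain for the animals. The deposited table is 1 for all samples, and its barcodes end in 1, 2 or 3. Nothing in the sources used here ties those endings to samples or animals. All nuclei were therefore treated as 1 pool without replicates, so no difference below was tested, and calls are by size alone. Values in the 3 barcode sets are given to show how even a level was.

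The barcode sets held 54, 53 and 39 members, or 0.587%, 0.596% and 0.470% of their nuclei. A member held a median of 3166 UMIs (range 681 to 14631) and 1683 detected genes. The median was 2493 UMIs in precursors and 1929 in mature oligodendrocytes, so the members were the more deeply read set. There were 68 barcodes present in more than 1 barcode set, 1 of them in a member, and no pair of members shared one. Levels are in CPM, the UMIs of a gene per 1000000 UMIs summed over a set, with exact 95% Poisson intervals for counting error. The members summed to 584922 UMIs, precursors to 1270980 and mature oligodendrocytes to 1071161.

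The genes of the rule describe how the nuclei were chosen. ENPP6 stood at 518 CPM in committed precursors, 24.4 CPM in precursors and 19.6 CPM in mature oligodendrocytes. BMPER stood at 1840, 116 and 37.3 CPM in the same order, and BCAS1 at 3577, 592 and 448 CPM. Of the 146 members, 101 held both ENPP6 and BMPER, 43 lacked ENPP6 and 2 lacked BMPER.

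The name of the set was read beside early oligodendrocyte genes that the rule did not use. Of these, MYRF and TNS3 were given with the name as its markers, so their levels are not an independent check of it. MYRF stood at 310, 345 and 218 CPM in the 3 barcode sets of committed precursors, at 16.6, 9.88 and 18.3 CPM in those of precursors, and at 173, 234 and 313 CPM in those of mature oligodendrocytes. The level in committed precursors was thus clear of that in precursors in each barcode set and overlapped that in mature oligodendrocytes. Over the pool MYRF was 19.6-fold higher in committed precursors than in precursors (95% counting interval 12.1 to 33.3) and 1.24-fold higher than in mature oligodendrocytes (1.01 to 1.51). TNS3, which codes for a tensin that links integrins to actin, stood at 2150, 2473 and 1930 CPM in committed precursors, at 515, 465 and 533 CPM in precursors, and at 306, 297 and 333 CPM in mature oligodendrocytes. No barcode set of the members overlapped either other set for TNS3. GPR17, a receptor that marks committed cells in mice, gave 7 UMIs in committed precursors, 5 in precursors and 0 in mature oligodendrocytes (3 UMIs would be 2.80 CPM there), too few to compare.

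A second reading used the whole profile. Each nucleus was assigned to the stage whose summed profile gave its counts the highest multinomial likelihood, with the rule genes and the nucleus itself left out. Of 146 members, 99 (67.8%) were assigned to the committed profile, 41 (28.1%) to the precursor profile and 6 (4.11%) to the mature profile. Of 431 precursors, 422 (97.9%) went to their own profile and 8 to the committed one. Among 434 mature oligodendrocytes, 417 (96.1%) went to their own and 3 to the committed profile. In 96 of 146 members the committed profile was more likely than every mixture of the precursor and mature profiles, against 7 of 431 precursors and 1 of 434 mature oligodendrocytes. Most members thus resembled one another on genes outside the rule, while 41 were nearer to precursors and 6 to mature oligodendrocytes. The committed profile was summed from the members themselves, so the assignment cannot check the name of the set.

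Nuclei near the threshold were less distinct. The 30 members with exactly 2 UMIs of ENPP6 and BMPER together held 856 CPM of TNS3 and 4016 CPM of FRMD4A, a gene described below. The 83 nuclei just outside, with exactly 1 such UMI and all other conditions met, held 626 CPM of TNS3 and 2284 CPM of FRMD4A. Of those 30 members, 6 were assigned to the committed profile and 21 to the precursor profile, whereas 93 of the 116 members above the threshold were assigned to the committed one. The 20 members with exactly 2 UMIs of BCAS1 held 787 CPM of TNS3, and the 24 nuclei with exactly 1 held 364 CPM. Members that lacked ENPP6 were less distinct too. Those 43 held 1000 CPM of TNS3, 139 CPM of MYRF and 7708 CPM of FRMD4A. The 101 with both ENPP6 and BMPER held 2813, 372 and 19665 CPM. Median depth was 3175 UMIs in the 43 and 3169 in the 101. A further 74 nuclei met the ENPP6, BMPER and BCAS1 conditions but exceeded a neuron limit. Their median depth was 9760.5 UMIs, and they were not members.

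RNA of neurons, astrocytes and microglia was present at similar levels in the 3 oligodendrocyte sets. Vascular markers differed more, at 47.9 CPM in committed precursors, 154 CPM in precursors and 107 CPM in mature oligodendrocytes. Ependymal markers summed to 595, 964 and 657 CPM in the same order. The 15 neuron markers in the table (14 measured; SNAP25, SYT1 and RBFOX1 among them) summed to 9347 CPM in committed precursors, 10133 CPM in precursors and 7723 CPM in mature oligodendrocytes, against 27753 CPM in nuclei with at least 3 UMIs of RBFOX3. The 10 astrocyte markers summed to 3977, 5121 and 3911 CPM in the 3 oligodendrocyte sets in that order, and to 13940 CPM in astrocytes. Their sum in the barcode sets of the members ranged from 3183 to 4880 CPM. The 9 microglia markers in the table (4 measured) summed to 222, 176 and 172 CPM, against 3212 CPM in microglia. No neuron, astrocyte or microglia marker was at least 2-fold higher in committed precursors than in either other set. By best mixture of profiles, 46 of 146 members held at least 0.25 of another cell type's profile (30 astrocyte, 12 neuron, 4 microglia), as did 130 of 431 precursors and 96 of 434 mature oligodendrocytes. Without those nuclei, FRMD4A was at a log2 fold of 3.97 over precursors and TMEM108 at 5.75 over mature oligodendrocytes, both larger than with them.

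**Figure D1:**
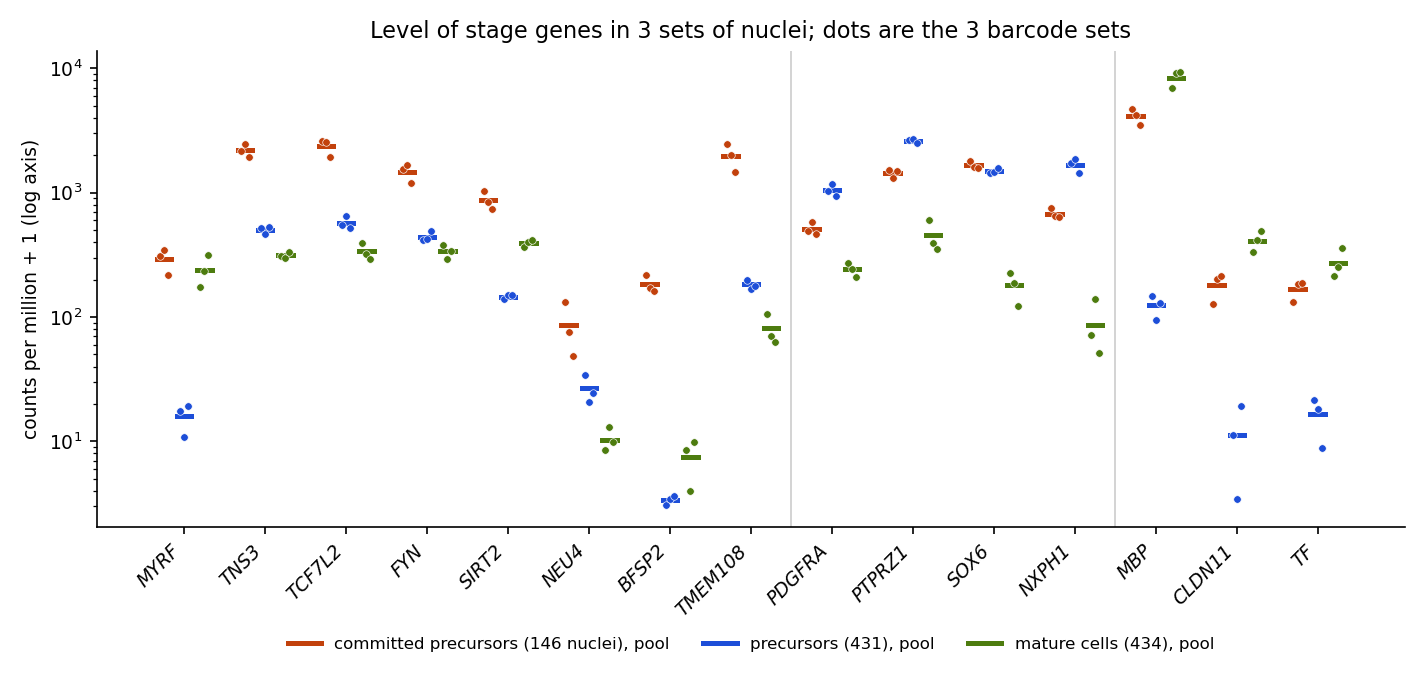
Levels of 15 genes in CPM plus 1 (vertical log axis) in committed precursors, precursors and mature oligodendrocytes. Wide bars are the pooled value and dots the 3 barcode sets. Early oligodendrocyte genes are at the left, precursor genes in the middle and myelin genes at the right. BFSP2, drawn at the left but not of the early oligodendrocyte list, stood at 183 CPM in committed precursors. It stood at 2.36 CPM in precursors and 6.53 CPM in mature oligodendrocytes.

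Committed precursors were not a plain midpoint between the stages on either side. Of 6989 genes measured in both comparisons, 82 (1.17%) were at least 2-fold higher in committed precursors than in precursors and also than in mature oligodendrocytes, and 89 (1.27%) were at least 2-fold lower than in both. Measured means a sum of 20 UMIs or more in 1 of the sets compared, and depth in both for 10 UMIs or more at the larger CPM. In each of the 3 barcode sets on its own, 78 of the 82 higher and 65 of the 89 lower genes kept their direction. Of the 82, 51 were also at least 2-fold higher than in neurons, in astrocytes and in microglia. In 44 genes (0.63%) the members were at least 2-fold above precursors and at least 2-fold below mature oligodendrocytes, and in 38 (0.544%) the reverse. Of the 13 measured early oligodendrocyte genes, 9 were above both sets: TNS3, TCF7L2, FYN, SIRT2, NEU4, LIMS2, PRICKLE1, SEMA4D and TMEM108. That list was chosen with earlier results of these data known, so its count is partly set by the choice. MYRF was above precursors alone, and ITPR2, PLXNB1 and RAP1GDS1 were within 2-fold of both.

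Ranked by the smaller of their folds over the 2 sets, the first of these genes was BFSP2, which codes for the lens filament protein phakinin. It stood at 219, 169.9 and 159.5 CPM in the barcode sets of committed precursors, at 2.07, 2.47 and 2.61 CPM in those of precursors and at 7.52, 3.00 and 8.85 CPM in those of mature oligodendrocytes. The groups were far apart in each barcode set. In UMIs this was 107 in committed precursors, 3 in precursors and 7 in mature oligodendrocytes, spread over 49 members with at most 9 in a nucleus. The fold was 77.5 over precursors (95% counting interval 25.8 to 382) and 28.0 over mature oligodendrocytes (13.1 to 71.3). With every nucleus thinned to 1000 UMIs, 16.6% of committed precursors held a BFSP2 UMI, against 0.234% of precursors, 0.716% of mature oligodendrocytes, 0.4% of neurons and 0.6% of astrocytes.

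TMEM108, a transmembrane protein of endosomal transport in neurons, stood at 2461, 1999 and 1462 CPM in committed precursors, at 199, 166 and 178 CPM in precursors and at 105, 69.1 and 62.0 CPM in mature oligodendrocytes. It was 10.9-fold higher in committed precursors than in precursors (9.46 to 12.6) and 24.7-fold higher than in mature oligodendrocytes (19.8 to 31.1). It was found in 119 of 146 members. IL17D, a cytokine of the interleukin 17 family, stood at 264, 319.8 and 218 CPM in committed precursors, against 33.1, 29.7 and 31.3 CPM in precursors and 17.5, 21.02 and 8.85 CPM in mature oligodendrocytes. The fold was 8.53 over precursors and 16.9 over mature oligodendrocytes. Thinned to 1000 UMIs, an IL17D UMI was found in 26.9% of committed precursors, 2.58% of precursors, 0.955% of mature oligodendrocytes, 2.5% of neurons and 1.8% of astrocytes.

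FRMD4A, a scaffold protein of cell polarity with a FERM domain, stood at 15592, 16625 and 14312 CPM in committed precursors. Precursors held 2125, 2365 and 2279 CPM and mature oligodendrocytes 2335, 1789 and 1723 CPM. The gene was 6.91-fold higher in committed precursors than in precursors (6.63 to 7.21) and 7.88-fold higher than in mature oligodendrocytes (7.51 to 8.26). A member held a median of 33 FRMD4A UMIs and at most 314, and 3 members held none. FRMD4A is read in other cells as well, at 3559 CPM in neurons, 4101 CPM in astrocytes and 4481 CPM in microglia, all below the members.

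TCF7L2, a transcription factor of the Wnt pathway that oligodendrocyte differentiation needs in mice, stood at 2608, 2543 and 1941 CPM in committed precursors, at 544, 643 and 519.6 CPM in precursors and at 391, 318 and 292 CPM in mature oligodendrocytes. It was 4.17-fold higher in committed precursors than in precursors (3.81 to 4.57) and 7.04-fold higher than in mature oligodendrocytes (6.26 to 7.92). With nuclei thinned to 1000 UMIs, a TCF7L2 UMI was found in 75.9% of committed precursors and 42.1% of astrocytes. FYN, a kinase of the Src family that myelination needs in mice, was 3.34-fold and 4.37-fold higher in committed precursors than in precursors and in mature oligodendrocytes. SIRT2, a deacetylase abundant in myelin, stood at 868 CPM in committed precursors, 145 CPM in precursors and 394 CPM in mature oligodendrocytes. Without the first barcode set, the log2 fold of SIRT2 over mature oligodendrocytes was 0.95, under 2-fold.

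TCF7L2, FYN and SIRT2 were not among the first 12 genes of the rank by smaller fold. The genes after FRMD4A in that rank were of mixed roles. RAPGEF1, an activator of Rap1, stood at 792 CPM in committed precursors, 140 CPM in precursors and 134 CPM in mature oligodendrocytes. RASGEF1B, another exchange factor for Ras-like proteins, stood at 286, 48.8 and 34.5 CPM, and the G protein subunit GNB4 at 179.5, 33.0 and 28.0 CPM in the same order. LIMS2, an adaptor at focal adhesions, was read at 70.1, 16.5 and 10.3 CPM, from 41, 21 and 11 UMIs. OLFML2A, a secreted olfactomedin-domain protein, stood at 171 CPM in committed precursors, 11.8 CPM in precursors and 28.0 CPM in mature oligodendrocytes.

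The 12 named genes of this rank, TNS3 among them, were completed by CMTM7, a membrane protein with a MARVEL domain, and TIMM22, a subunit of a mitochondrial import channel. CMTM7 stood at 113 CPM in committed precursors, 14.2 CPM in precursors and 20.5 CPM in mature oligodendrocytes. Its level in the barcode sets of the members was 158, 105 and 74.4 CPM, and without the first barcode set its log2 fold was 2.24 over precursors and 1.60 over mature oligodendrocytes, against 2.99 and 2.46 with it. TIMM22 rested on 27 UMIs in committed precursors, 11 in precursors and 10 in mature oligodendrocytes.

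**Figure D2:**
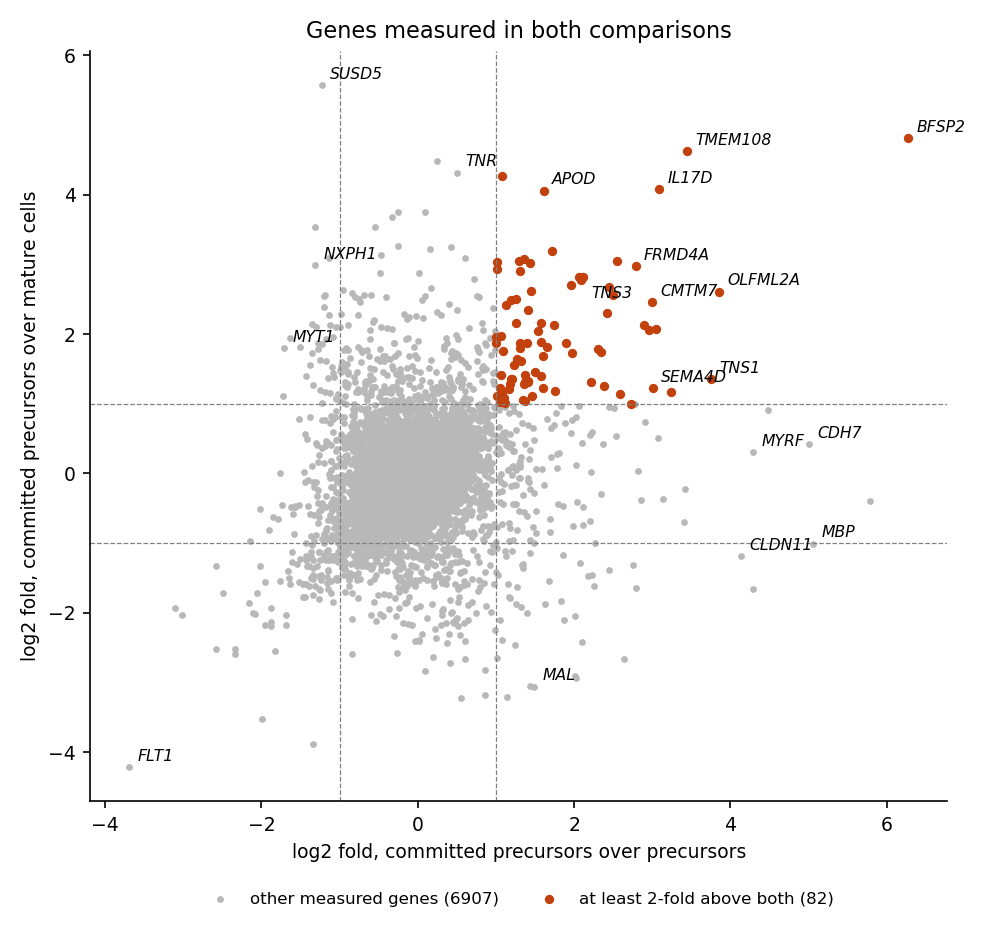
Each dot is 1 of 6989 genes measured in both comparisons, with the log2 fold of committed precursors over precursors on the horizontal axis and over mature oligodendrocytes on the vertical axis. Dashed lines mark 2-fold, and the 82 coloured genes lie at least 2-fold above both sets. BFSP2 and TMEM108 stand at the upper right, SUSD5 at the top left, MBP and CLDN11 at the lower right.

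Against precursors, committed precursors held more of the myelin and early oligodendrocyte genes and kept most precursor genes within 2-fold. Of 7878 measured genes, 265 (3.36%) were at least 2-fold higher in committed precursors and 489 (6.21%) at least 2-fold lower. The median log2 fold of all measured genes was -0.13. Either way, this was 9.57% of the measured genes. The direction was shared by the 3 barcode sets in 254 of the higher and 420 of the lower genes. In the list of early oligodendrocyte genes, 10 of 13 measured were at least 2-fold higher and none lower (median log2 fold 2.08), and in the myelin and sheath list 13 of 15 were higher and none lower (median 2.12). Of 20 precursor genes, 1 was higher and 4 were lower (median -0.52). The members of these lists were chosen with these data known, and the myelin and precursor lists run alongside the comparison rules, so their direction is partly set by the choice.

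MBP, the myelin basic protein gene, stood at 4702, 4222 and 3493 CPM in the barcode sets of committed precursors and at 147, 93.9 and 128 CPM in those of precursors. It was 33.4-fold higher in committed precursors (28.4 to 39.5). CLDN11, which seals the layers of the sheath, was 17.6-fold higher (9.83 to 34.1). TF, the iron carrier transferrin, was 10.6-fold higher, at 168 CPM in committed precursors and 15.7 CPM in precursors. CD22, a sialic acid binder read in these nuclei with the myelin genes, gave 27 UMIs in committed precursors and 0 in precursors, where 3 UMIs over the set would be 2.36 CPM. With 3 UMIs put in place of that 0, the fold of CD22 was 19.6.

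Other genes stood far above precursors and close to mature oligodendrocytes. The carboxypeptidase M gene, CPM, gave 127 UMIs in committed precursors, 5 in precursors and 307 in mature oligodendrocytes, which is 217, 3.93 and 287 per 1000000 UMIs. CDH7, a cadherin, stood at 253 CPM in committed precursors, 7.87 CPM in precursors and 189 CPM in mature oligodendrocytes. CDK18, a cyclin-dependent kinase, stood at 70.1, 3.15 and 37.3 CPM in that order. FRMD4B, a FERM-domain relative of FRMD4A, stood at 1775, 305 and 1222 CPM. Of 39 measured cytoskeleton and process genes, 9 were at least 2-fold higher in committed precursors than in precursors and 1 was lower (median log2 fold 0.36). Among all measured genes the shares were 3.36% higher and 6.21% lower. The 9 included FRMD4A, FRMD4B and SRCIN1, a regulator of the kinase Src, which was 8.82-fold higher (6.02 to 13.2).

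ST18, a zinc finger transcription factor of oligodendrocytes, stood at 217 CPM in committed precursors, 48.0 CPM in precursors and 603 CPM in mature oligodendrocytes. MYT1, a zinc finger factor of the same family active in precursors, stood at 65.0, 212 and 18.7 CPM in that order. These factors thus ran opposite ways across the 3 sets, each with the members in between. Of 18 measured lineage transcription factors, 1 was at least 2-fold higher in committed precursors than in precursors (ST18) and 2 were lower (MYT1 and HES5). Among all measured genes 3.36% were higher and 6.21% lower, and counts this small do not set the list apart. HES5, a target of Notch, was read from 13 UMIs in committed precursors and 64 in precursors, at a log2 fold of -1.18, which was -0.19 without neuron limits on the comparison nuclei and -0.98 without the third barcode set. Without those limits the log2 fold of ST18 over mature oligodendrocytes was -0.99, against -1.47 with them. OLIG2, the lineage-defining factor, stood at 35.9 CPM in committed precursors, 67.7 CPM in precursors and 10.3 CPM in mature oligodendrocytes, from 21, 86 and 11 UMIs.

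The precursor genes did not behave as a block. PDGFRA, the receptor for platelet-derived growth factor that keeps precursors dividing, stood at 488, 575 and 463 CPM in committed precursors and at 1028, 1179 and 935 CPM in precursors, a fold of 0.486 (0.427 to 0.552). NXPH1, a ligand of neurexins, stood at 675 CPM in committed precursors and 1681 CPM in precursors (fold 0.402, 0.360 to 0.448). EPN2, an adaptor of endocytosis, and CNTNAP5, an adhesion protein, were the other precursor genes at least 2-fold lower. The log2 fold of CNTNAP5 was -1.14, and -0.95 without the second barcode set. Against this, SOX6, a transcription factor that holds back differentiation in mice, stood at 1663 CPM in committed precursors and 1496 CPM in precursors. TNR, the matrix protein tenascin R, stood at 1060 CPM in committed precursors and 748 CPM in precursors, and VCAN, a matrix proteoglycan, at 301 and 286 CPM. SMOC1, a matrix protein, was 2.42-fold higher in committed precursors than in precursors, and its log2 fold was 0.95 without the first barcode set.

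The direction of the precursor list depended on the limits put on the comparison nuclei. Without limits on RBFOX3, GAD1 and GAD2 in them, the median log2 fold of the 20 precursor genes was 0.30 instead of -0.52. The values of 4 genes over precursors were then -0.27 for PDGFRA, -0.57 for NXPH1, -0.26 for EPN2 and -0.73 for MYT1, all under 2-fold. Of the nuclei added to the precursors by that setting, 283 were over a neuron limit, with a median of 10101 UMIs. PDGFRA was also at -0.99 with median-of-ratios scaling.

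Receptor, channel and matrix genes are read here beside 3.36% higher and 6.21% lower among all measured genes. Of 21 measured glutamate receptor genes, none was at least 2-fold higher in committed precursors than in precursors and 1 was lower, GRIK1, a kainate receptor subunit, at 350.5 CPM in committed precursors and 708 CPM in precursors. Its log2 fold was -1.01, -0.92 without the first barcode set, -0.82 without the second and -0.96 with median-of-ratios scaling. Of 34 voltage-gated channel genes, 1 was higher and 4 were lower (median log2 fold -0.46). KCNB2, a potassium channel of the delayed rectifier type, was the higher one, at 993 CPM in committed precursors, 415 CPM in precursors and 176 CPM in mature oligodendrocytes. Its log2 fold over precursors was 1.26, 0.85 in the 29 members that pass neither comparison rule and 0.77 without neuron limits on the comparison nuclei. With nuclei thinned to 1000 UMIs, a KCNB2 UMI was found in 52.4% of committed precursors and 42.6% of neurons.

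Of 25 matrix and proteoglycan genes, 1 was at least 2-fold higher in committed precursors than in precursors and 4 were lower (median -0.62). SULF2, which trims sulfates from heparan sulfate, stood at 309 CPM in committed precursors and 708 CPM in precursors. ADAMTS17, a matrix protease, stood at 104 CPM in committed precursors and 271 CPM in precursors. PTPRT, a receptor phosphatase of the adhesion list, stood at 185 CPM in committed precursors and 524 CPM in precursors. Without neuron limits on the comparison nuclei the log2 folds over precursors of these 3 genes were -0.30, -0.44 and -0.78, all under 2-fold, and that of SULF2 was -0.97 without the second barcode set. Of 36 guidance genes 5 were higher and 1 lower, with SEMA3E, a secreted semaphorin, at 265 CPM in committed precursors, 57.4 CPM in precursors and 180.2 CPM in mature oligodendrocytes. EPHB1, a receptor for ephrins, stood above both, at 783, 263 and 213 CPM. With nuclei thinned to 1000 UMIs, an EPHB1 UMI was found in 42.8% of committed precursors and 43.3% of astrocytes.

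Of 22 cell cycle genes in the table, CCND1 alone was measured against precursors. CCND1, the cyclin that carries cells through the first growth phase, gave 15 UMIs in committed precursors, 97 in precursors and 4 in mature oligodendrocytes, a fold of 0.336 over precursors (0.181 to 0.582). Its log2 fold was -1.57, and -0.37 without neuron limits on the comparison nuclei. The 22 genes together summed to 122, 60.0 and 229 CPM in the barcode sets of committed precursors and to 273, 195 and 198 CPM in those of precursors, so the sets overlapped. NOTCH1, the receptor whose signal keeps precursors undifferentiated in mice, stood at 71.8 CPM in committed precursors and 154 CPM in precursors, and its ligand JAG1 gave 2 UMIs in committed precursors and 35 in precursors. The log2 fold of NOTCH1 was -1.10, and 0.03 without neuron limits on the comparison nuclei, -0.82 in the 29 members that pass neither comparison rule and -0.90 without the third barcode set. TFEB, a lysosomal transcription factor that curbs myelination in mice, stood at 150 CPM in committed precursors, 43.3 CPM in precursors and 204 CPM in mature oligodendrocytes.

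Of 17 measured cholesterol genes, 4 were at least 2-fold higher in committed precursors than in precursors and none lower (median log2 fold 0.42). Among all measured genes the shares were 3.36% higher and 6.21% lower. The 4 higher genes included MVK, FDFT1 and LSS, enzymes of the synthesis pathway. They rested on 21, 52 and 44 UMIs in committed precursors against 8, 48 and 44 in precursors. The log2 fold of LSS was 1.12, 0.74 without the first barcode set, 0.82 without the third, 0.92 with at least 3 UMIs of BCAS1 and 0.82 without mixed nuclei.

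**Figure D3:**
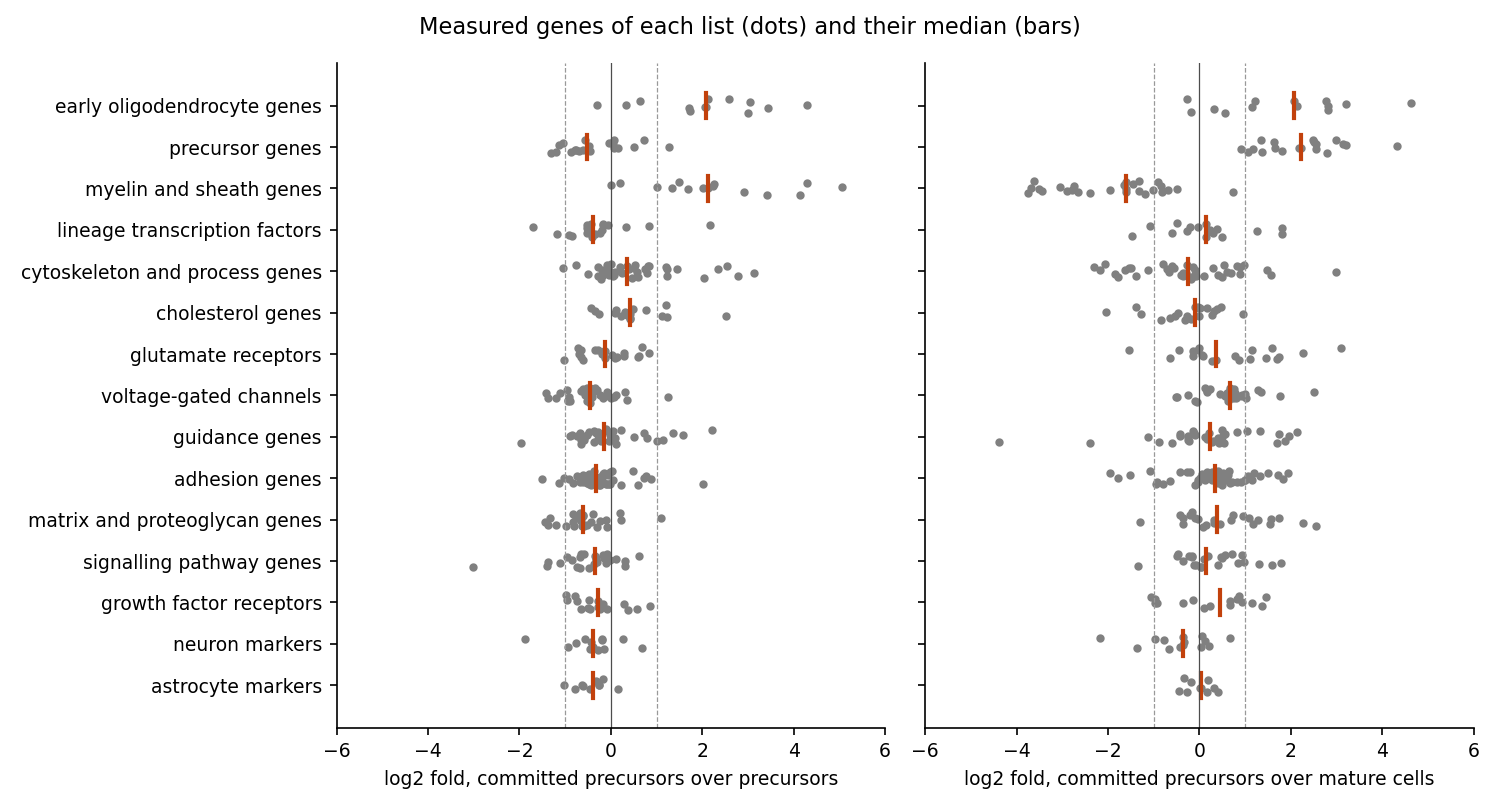
Log2 folds of committed precursors over precursors (left) and over mature oligodendrocytes (right) for the measured genes of each list. Dots are genes and bars the median of a list. Over mature oligodendrocytes the precursor genes had a median of 2.22 and the myelin genes of -1.62.

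Against mature oligodendrocytes, committed precursors held more of nearly all precursor genes and less of most myelin genes. Of 7345 measured genes, 390 (5.31%) were at least 2-fold higher in committed precursors and 645 (8.78%) at least 2-fold lower, with a median log2 fold of all genes of -0.08. Either way, this was 14.1% of the measured genes, and the 3 barcode sets shared the direction in 373 of the higher and 610 of the lower ones. Of 19 measured precursor genes, 18 were at least 2-fold higher in committed precursors and none lower (median log2 fold 2.22). Of 27 myelin and sheath genes, 21 were lower and none higher (median -1.62). Both directions are partly set by the choice of nuclei and lists. Mature oligodendrocytes were chosen by myelin genes and held no nucleus that passed the precursor rule. Among the members, 88 passed the precursor rule alone and 11 passed both rules.

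TNR had the highest fold of the precursor list. It stood at 1047, 1219 and 904 CPM in the barcode sets of committed precursors and at 57.6, 60.0 and 41.3 CPM in those of mature oligodendrocytes, a fold of 19.9 (15.2 to 26.6). SOX6 was 9.28-fold higher in committed precursors than in mature oligodendrocytes (7.94 to 10.9), NXPH1 7.95-fold (6.31 to 10.1) and CA10, a carbonic anhydrase relative that binds neurexins, 8.76-fold (7.16 to 10.8). PDGFRA was 2.09-fold higher (1.76 to 2.48) and fell under 2-fold in 5 of the alternatives, at log2 folds from 0.85 to 0.99. APOD, a lipid carrier of the lipocalin family, stood at 171 CPM in committed precursors, 55.9 CPM in precursors and 10.3 CPM in mature oligodendrocytes. LPA, the apolipoprotein(a) gene, stood at 378, 179 and 19.6 CPM in that order, and its log2 fold over precursors was 0.90 without the first barcode set. SUSD5, a protein with a sushi domain, gave 26 UMIs in committed precursors, 132 in precursors and 1 in mature oligodendrocytes. Its log2 fold over precursors was -1.22, -0.86 with RBFOX3, GAD1 and GAD2 at 0 in members and -0.07 without neuron limits on the comparison nuclei.

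Several receptor, channel and matrix genes also stood above mature oligodendrocytes, beside 5.31% higher and 8.78% lower among all measured genes. Of 24 matrix and proteoglycan genes, 8 were at least 2-fold higher in committed precursors and 1 was lower (median log2 fold 0.38). Of 21 glutamate receptor genes, 8 were at least 2-fold higher in committed precursors and 1 was lower (median log2 fold 0.36). The AMPA receptor gene GRIA4 was read at 347 CPM in committed precursors, 282 CPM in precursors and 71.9 CPM in mature oligodendrocytes. GRIK3, a kainate receptor subunit, gave 28, 40 and 6 UMIs. Of 30 voltage-gated channel genes, 5 were higher and none lower (median 0.68), among them KCND2, the A-type potassium channel, at 1216 CPM in committed precursors, 2260 CPM in precursors and 358 CPM in mature oligodendrocytes. Without neuron limits on the comparison nuclei the channel list had a median of -0.20, with 3 genes higher and 3 lower among 33 measured, and KCND2 a log2 fold of 0.86.

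Among myelin genes the members reached very different fractions of the mature level. MBP stood at 4702, 4222 and 3493 CPM in the barcode sets of committed precursors and at 6892, 9136 and 9267 CPM in those of mature oligodendrocytes. The fold was 0.497 (0.475 to 0.520), at the edge of the 2-fold call, and the log2 fold lay between -0.98 and -0.39 in 10 of the alternatives. TF and CNP, an early myelin enzyme, were within 2-fold, at 0.619 (0.487 to 0.781) and 0.570 (0.289 to 1.06) of the mature level. CLDN11 stood at 0.439 of it (0.351 to 0.544), a log2 fold of -1.19 that was -0.64 without neuron limits on the comparison nuclei and -0.86 with nuclei thinned to 1000 UMIs. MAL, a raft protein of compact myelin, stood at 0.120 (0.0744 to 0.185), from 22 UMIs in committed precursors and 335 in mature oligodendrocytes.

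Several late genes were almost missing from committed precursors. ERMN, which codes for the oligodendrocyte cytoskeletal protein ermin, gave 2 UMIs in committed precursors and 45 in mature oligodendrocytes. CARNS1, which makes carnosine, gave 4 and 98 UMIs. GPR37, a receptor that restrains myelination in mice, gave 7 and 147 UMIs, and SELENOP, a selenium carrier, 7 and 174. UNC5B, a netrin receptor, gave 2 UMIs in committed precursors and 76 in mature oligodendrocytes. With nuclei thinned to 1000 UMIs, none of 145 committed precursors held a CARNS1 UMI (which allows a share of up to 2.07%), against 10.5% of mature oligodendrocytes and 0.3% of neurons.

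Some abundant genes of mature oligodendrocytes stood lower in committed precursors. The adhesion and guidance lists as a whole did not run this way. Of 47 adhesion genes, 8 were at least 2-fold higher and 4 lower (median log2 fold 0.35). Of 34 guidance genes, 7 were higher and 3 lower (median 0.23). Among all measured genes 5.31% were higher and 8.78% lower. UNC5C, a second netrin receptor, stood at 426 CPM in committed precursors, 422 CPM in precursors and 2223 CPM in mature oligodendrocytes. PTPRD, a receptor phosphatase of synapses and axons, stood at 894, 1154 and 3448 CPM, and MAGI2, a scaffold protein, at 1626, 1752 and 5573 CPM in the same order. For these 3 genes committed precursors lay at or slightly under the precursor level. QDPR, which recycles tetrahydrobiopterin, was close to precursors too, with 44.5 CPM in committed precursors, 41.7 CPM in precursors and 316 CPM in mature oligodendrocytes. DEPTOR, an inhibitor of the growth kinase mTOR, stood in between at 99.2 CPM, against 37.8 CPM in precursors and 397 CPM in mature oligodendrocytes. Of 21 cholesterol genes, 3 were at least 2-fold lower in committed precursors than in mature oligodendrocytes and none higher, beside 8.78% lower among all measured genes. Among the 3 was NPC1, which exports cholesterol from lysosomes, at 35.9 CPM in committed precursors and 148 CPM in mature oligodendrocytes.

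The 89 genes below both sets rested on few UMIs. With a minimum of 50 in place of 20, 10 of them would be counted. PRKCQ, a protein kinase C, gave 35 UMIs in committed precursors at log2 folds of -1.11 and -1.54 over precursors and mature oligodendrocytes. RELN, the matrix protein reelin, gave 24 UMIs at -1.95 and -2.17. Both were chosen after their values were seen, as the below-both genes with most UMIs. Vascular markers were among the low genes, with FLT1, a receptor of endothelial cells, at 1 UMI in committed precursors, 28 in precursors and 34 in mature oligodendrocytes. Their part in the result was not tested.

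The 146 nuclei differed among themselves along a line from precursor to myelin. Per 1000 UMIs of a nucleus, the precursor list took a median of 20.2 UMIs in committed precursors (range 2.61 to 45.8), 29.4 in precursors and 3.18 in mature oligodendrocytes. The myelin list took a median of 4.72 in committed precursors (range 0 to 41.0), 0.959 in precursors and 19.4 in mature oligodendrocytes. There were 114 members with more UMIs of the precursor list than of the myelin list and 32 with fewer. Over the 146 members these shares had a Spearman correlation of -0.53 and a Pearson correlation of -0.59. These describe nuclei of 1 pool, and shares of 1 total tend to oppose each other.

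**Figure D4:**
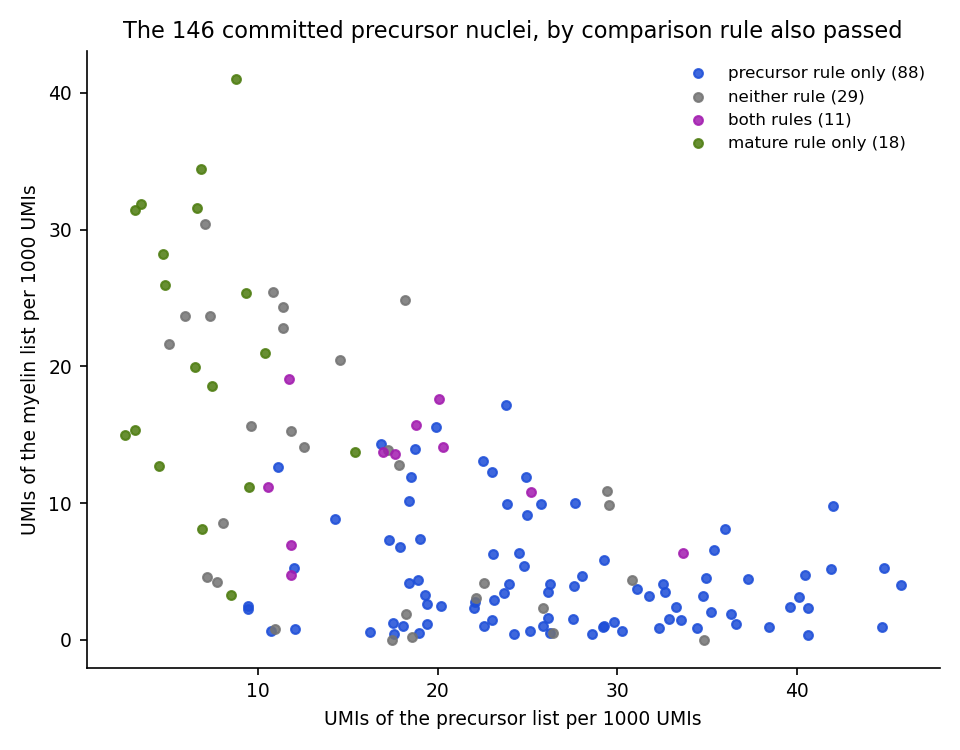
Each dot is 1 of the 146 committed precursors, with UMIs of the precursor list (horizontal) and of the myelin list (vertical) per 1000 UMIs of that nucleus. Colours show which comparison rule the nucleus also passed: precursor alone (88), neither (29), both (11) or mature alone (18). The horizontal values run from 2.61 to 45.8 and the vertical ones from 0 to 41.0.

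The 29 members that passed neither comparison rule were not a weaker copy of the rest. TNS3 stood at 2731 CPM in them, against 2193 CPM in the 88 members that passed the precursor rule and 1685 CPM in the 18 that passed the mature rule. TMEM108 stood at 3217 CPM in those 29 nuclei, 1734 CPM in the 88 and 1904 CPM in the 18. FRMD4A was at 20776 CPM, 15923 CPM and 6556 CPM in the same order, so it was lowest in the nuclei that met the mature rule. Of the 29 nuclei, 22 were assigned to the committed profile, 7 to the precursor profile and none to the mature one. Their median depth was 2394 UMIs, against 3166 in the 88, 3605 in the 18 and 6243 in the 11 members that passed both rules. The part of depth in failing both rules was not tested. The 29 nuclei were unevenly spread, with 13, 14 and 2 in the 3 barcode sets. MYRF and MBP ran the other way along the rules, at 222 and 1587 CPM in the 88 nuclei, 337 and 6385 CPM in the 29, and 531 and 11080 CPM in the 18.

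MBP itself divided the members. It was missing from 42, present at 1 to 9 UMIs in 40 and at 10 or more in 64. Of 431 precursors 354 lacked MBP and 2 held 10 or more, while no mature oligodendrocyte lacked it and 363 of 434 held 10 or more. The median depth of the 3 classes of members, from low MBP to high, was 2808, 3191 and 3265 UMIs. Each class came from all 3 barcode sets (22, 11 and 9 nuclei; 10, 18 and 12; 22, 24 and 18). This division was chosen after the values were seen and was not tested, and values below are in the order MBP absent, 1 to 9 UMIs, 10 or more. BMPER, ENPP6 and BCAS1, which chose the members, were also highest in the last class. BMPER stood at 974, 851 and 2855 CPM, ENPP6 at 205, 321 and 789 CPM and BCAS1 at 2995, 3403 and 3964 CPM. Their part in the differences of other genes between classes was not tested.

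Summed over the list, precursor genes were lower in nuclei with more MBP, at 25882, 22607 and 14394 CPM. Not all members of the list ran this way: SMOC1 stood at 410, 256 and 892 CPM, and TNR, given below, was highest in the last class. NXPH1 stood at 1428, 749.6 and 264 CPM, PCDH15, a protocadherin, at 2292, 2017 and 753 CPM, and PTPRZ1, a receptor phosphatase, at 2160, 1666 and 963 CPM. SOX6 stood at 2167, 2076 and 1170 CPM, so most of its difference lay between the last classes. PDGFRA was at 761, 464 and 414 CPM.

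A second group of genes was present whether or not MBP was read. IL17D stood at 205, 315 and 271 CPM, with counting intervals that overlapped (136 to 296, 236 to 412 and 214 to 339). GNB4 stood at 161, 173 and 193 CPM and BFSP2 at 124, 155 and 228 CPM. TNR, of the precursor list, stood at 842, 994 and 1206 CPM and FYN at 1179, 1398 and 1670 CPM. TNS3 was at 1713 and 1755 CPM in the first classes and at 2683 CPM in the last. In each class the pooled values of these 6 genes were above their level in precursors, which for IL17D was 31.5 CPM and for BFSP2 2.36 CPM. For TNR the interval without MBP, 695 to 1011 CPM, included the precursor level given above. TNR was under that level in the second barcode set without MBP (625 CPM) and in the third with 1 to 9 UMIs (733 CPM). GNB4 was under its precursor level in the third barcode set without MBP (30.8 CPM).

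Another group was read mainly in nuclei with at least 10 MBP UMIs. CMTM7 gave 0, 1 and 65 UMIs in the 3 classes, where 3 UMIs would be 22.0 CPM in the first class and 65 UMIs were 232 CPM in the last. The carboxypeptidase M gene, CPM, gave 0, 3 and 124 UMIs. CDH7 gave 3, 3 and 142 UMIs (22.0, 17.8 and 507 CPM), and TNS1, a tensin like TNS3, 3, 3 and 155 UMIs (22.0, 17.8 and 553 CPM). SEMA4D, a membrane semaphorin of oligodendrocytes, stood at 124, 244 and 1153 CPM, and its value in the last class was 1508, 1310 and 668 CPM in the 3 barcode sets. PRICKLE1, a planar cell polarity gene, stood at 29.3, 71.4 and 214 CPM, and TF at 43.9, 53.5 and 296 CPM.

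FRMD4A and TCF7L2 were present throughout and highest with MBP. FRMD4A stood at 6824, 12601 and 21538 CPM over the 3 classes. In the class without MBP its barcode sets were at 6930, 7678 and 5599 CPM, all above the 2248 CPM of precursors, and in the last class at 21871, 21047 and 21834 CPM. TCF7L2 stood at 1201, 1303 and 3582 CPM and TMEM108 at 1193, 1226 and 2819 CPM. RAPGEF1 stood at 293, 375 and 1285 CPM and MYRF at 168, 208 and 403 CPM. The cytoskeleton list, which holds FRMD4A, summed to 18209, 25969 and 43439 CPM.

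The profile assignment followed the same classes. Among members without MBP, 19 were assigned to the committed profile and 23 to the precursor profile. With 1 to 9 UMIs the numbers were 24 committed, 15 precursor and 1 mature, and with 10 or more they were 56 committed, 3 precursor and 5 mature. MBP was itself among the genes read by the assignment. The astrocyte markers summed to 4993, 5402 and 2626 CPM over the classes and the neuron markers to 9430, 9293 and 9338 CPM. The part of the astrocyte RNA in the differences between classes was not tested.

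**Figure D5:**
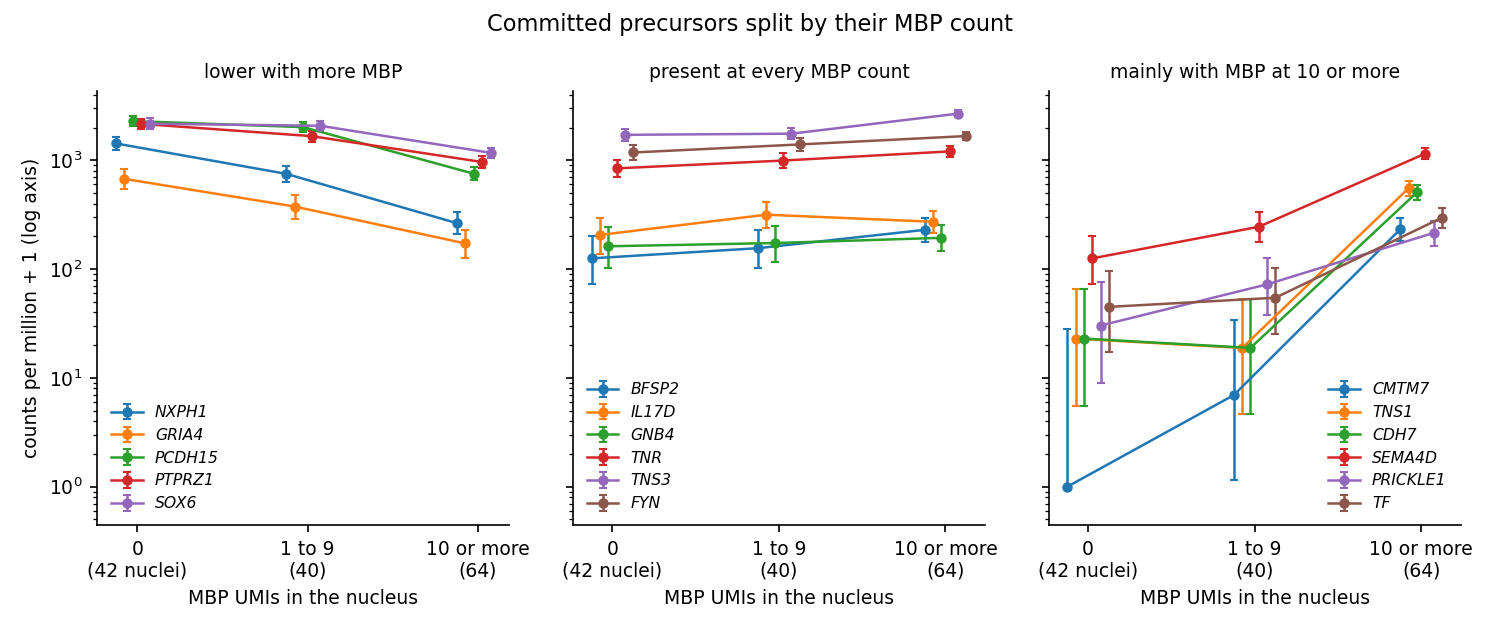
Levels in CPM plus 1 (vertical log axis) in the committed precursors with 0, 1 to 9, and 10 or more MBP UMIs (42, 40 and 64 nuclei). Points are pooled values and bars exact 95% counting intervals. NXPH1 stood at 1428 CPM without MBP and at 264 CPM with 10 or more, IL17D at 205 and 271 CPM, and TNS1 at 22.0 and 553 CPM.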

How the data were processed

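Nuclear RNA of 12 labelled samples was read with a 10x 3′ V2 kit, per the labels' protocols. The authors deposited 1 table of raw UMI counts, 19708 gene rows by 26400 nuclei. The submitters' processing notes name fastp, Cell Ranger 3.0.0 and the human build GRCh38, with no role given; filters are not given in the sources used here. Every deposited nucleus held 390 to 4999 detected genes, and no mitochondrial row was present. Symbols were taken from the files, and 851 of 5142 Ensembl rows had a symbol in the RefSeq gene table given for macaque.

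Counts were summed per set and scaled to CPM (Python 3.11.15, numpy 2.4.6, scipy 1.17.1, pandas 2.3.3, matplotlib 3.10.9). A count of 0 was set to 3 for folds, calls were at least 2-fold, and ratio intervals are exact conditional ones at 95%. PCR copies share a UMI, so intervals cover counting error only. Profiles for the assignment were smoothed with 1000 UMIs at the proportions of the pool. No doublet caller was run. The check for mixed nuclei took its place, and it covered neuron, astrocyte and microglia profiles alone. Astrocytes held at least 3 UMIs of AQP4, ALDH1L1, GJA1 and SLC4A4 together, microglia at least 3 of CSF1R, P2RY12, APBB1IP and DOCK8 together, both with RBFOX3 at most 1.

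Named genes were, without rule genes, the 10 highest and the 10 lowest folds of each comparison with the same direction in all 3 barcode sets, up to 4 per list by absolute fold, the 12 highest by the smaller fold among genes above both sets, and the label markers. Some genes that the rule names are not reported here. Other genes named were chosen for their role or after their values were seen. The members and all lists were chosen with earlier results of these data known.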

Additional observations from a re-analysis of the deposited data

How the results depend on the processing

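The share of members, 0.553%, was 0.439% with at least 3 UMIs of ENPP6 and BMPER, 0.367% with RBFOX3, GAD1 and GAD2 at 0, 0.110% without members that pass a comparison rule, and 0.379% without mixed nuclei. Against precursors, 265 genes higher and 489 lower became 454 and 736 without neuron limits on the comparison nuclei, and 772 and 1259 with no count minimum. The lower count was 255 without members that pass a comparison rule, 744 by the mean CPM per nucleus and 175 with a minimum of 50 UMIs. Against mature oligodendrocytes, 390 higher and 645 lower became 229 and 375 with that minimum and 1064 and 1403 with none, and 338 were lower without members that pass a comparison rule. The 82 genes above both became 137 without members that pass a comparison rule (47 shared), 134 without mixed nuclei (71 shared), 138 without neuron limits (63 shared) and 289 with no minimum. The 89 genes below both became 292 without neuron limits, 58 after thinning to 1000 UMIs, 145 by the mean CPM per nucleus, 10 with the minimum of 50 and 506 with none. Without 1 barcode set each, the counts ranged from 227 to 255 and 413 to 464 against precursors, 321 to 377 and 626 to 629 against mature oligodendrocytes, and 67 to 84 above and 83 to 96 below both. Of 201 named folds past 2-fold, 146 stayed past it in all alternatives that could measure them. The log2 fold of EFNA5 turned to -0.98 over precursors without neuron limits and to -0.30 over mature oligodendrocytes with neuron genes at 0, and NOTCH1 to 0.026 over precursors without neuron limits; the cause was not tested. A gene under the count minimum in an alternative has no value there. No paired analysis was possible because the study has 1 group and no map from nuclei to samples. At this depth a gene needs about 20 UMIs in a set to be compared, so the early markers read from few UMIs, GPR17 among them, were not compared.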
